A study of Canis lupus familiaris with 5 samples.

Results

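The genes described here encode RNA polymerase II and the machinery that handles its transcripts, measured in canine heart muscle with and without congestive heart failure. Members were all probe sets that the platform annotation paired with 1 gene symbol beginning with POLR2, HNRNP, SRSF, SF3, SNRP, PRPF, U2AF, DDX, DHX, RBM or LSM. The rule uses symbols alone, though it was written with earlier results of these data known. It found 50 of the 2416 genes on the array, through 80 of 3724 probe sets with 1 symbol. Of the 50 genes, 10 were subunits of the polymerase (18 probe sets, called the transcription class), 30 had splicing prefixes (49 probe sets) and 10 were DEAD-box or DEAH-box helicases (13 probe sets). No probe set carried a symbol with the U2AF prefix. The pseudogene HNRNPA3P1 was left out by the rule.

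The study compared 2 arrays of control myocardium (control 1a and 2a) with 3 arrays of failing myocardium (failing 1a, 1b and 2a), all from dogs of unstated strain and age. For 4 arrays, material from 3 animals was combined into a pool, and what lay behind control 1a is not given in the sources used here. The cause of the heart failure, its duration and how failing 1a and 1b relate to each other are also not given there. The p-values therefore reflect array-to-array spread alone, and part of that spread may be technical. Whole tissue was used, in which fewer cells of a type and less RNA per cell cannot be told apart.

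RNA polymerase II reads protein-coding genes into precursor RNA. Small nuclear ribonucleoproteins, each a short RNA on a ring of Sm or LSm proteins, assemble on that precursor as the spliceosome and remove its introns. SR proteins mostly promote the use of nearby splice sites, and hnRNP proteins coat the transcript and often repress such sites. DEAD-box and DEAH-box helicases use ATP to remodel RNA in splicing, export, translation and ribosome assembly. In heart muscle these proteins are known for the alternative splicing of sarcomere and calcium-handling transcripts, and in mice the loss of some of them, SRSF2 and HNRNPU among them, from heart muscle causes cardiomyopathy.

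Values were linear intensities, a unit with no fixed meaning between probe sets. Levels are therefore compared only within a probe set or, for cell type markers, as sums over the same sets on each array. Log2 fold changes, also called log2 differences, are group means of failing minus control after values under 20 were raised to that floor. A probe set was tested when its mean log2 value reached the median of all probe sets, an intensity of 140.1. This left 42 member probe sets of 32 genes among 2301 tested probe sets. A fold is given only where no array lay below the floor.

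Markers of heart muscle cells (29 probe sets of 14 of the 18 genes listed) were bright on every array. Their summed intensity lay between 244557 and 279603 on the control arrays and between 249576 and 297627 on the failing arrays. In this and the other marker sums, values below 0 counted as 0, and the brightest sets weigh most. Single markers went both ways beneath these overlapping sums. Of 24 tested sets 5 were lower at an unadjusted p under 0.05 (MYH6 at 0.686-fold, a set of MYL3 0.681, a set of TTN 0.649, MB 0.704 and 1 of 2 sets of CKM). The other tested sets of TTN read 1.53-fold, 1.62-fold and 1.06-fold, with overlapping groups. Past that threshold 2 sets were higher (ACTN2 at 3.52-fold and DES at 1.83-fold), and limma called 0 of the 24 after adjustment. Summed fibroblast markers (11 probe sets of 8 of 9 genes) ran from 2976 to 4848 in control and from 5735 to 8968 in failing myocardium, without overlap. Of 7 tested fibroblast probe sets 2 lay above both control arrays on all failing arrays, and 2 of the 11 were below the floor on all arrays. Of 6 tested endothelial sets 3 lay above control (AQP1 at 3.29-fold, a set of CDH5 5.29 and VWF 1.81) and 1 below (a set of ENG at 0.164-fold). The other CDH5 set was too dim to be tested, and the other ENG set read 1.08-fold with overlapping groups. Of all tested probe sets 18.2% lay above and 11.5% below. The median log2 fold change was 0.99 for the endothelial and 0.50 for the fibroblast sets. None of the 8 leukocyte probe sets was bright enough to be tested. For GAPDH, the 3′ signal over the 5′ signal, commonly read as a measure of RNA integrity, was 2.24 ± 0.126 (SD) in control and 1.39 ± 0.061 in failing myocardium, and that of actin 0.0992 ± 0.0131 and 0.162 ± 0.0646. Exact two-sided permutation tests of these ratios gave p = 0.2 and p = 0.6, where 0.2 is the smallest p these arrays allow. Actin's 3′ signal lay far below its 5′ signal on every array (4191.9 against 46610.5 on control 1a). Whether these ratios reflect RNA integrity here was not tested. The bacterial control probe sets averaged 39336 and 41377 on control 1a and 2a and 12758, 25186 and 25606 on failing 1a, 1b and 2a, without overlap (exact two-sided permutation p = 0.2). The part of these marker, 3′ to 5′ ratio and array control differences in the values below was not tested.

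Failing 2a stood apart among the members too. Over the 42 tested member probe sets the median absolute log2 difference was 0.25 between failing 1a and 1b and 0.41 between the control arrays, but between 0.92 and 1.10 for failing 2a against any other array. Over all 2301 tested probe sets these values were similar, with 0.32, 0.42 and 0.86 to 0.94. Failing 2a gave the lowest or the highest of the 5 values at 32 of the 42 member probe sets, a share that was not counted over all probe sets. Counts over the members are therefore also given without that array.

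Failing and control myocardium were compared to find transcripts that differ with the disease. Several hnRNP genes (HNRNPA2B1, HNRNPK, HNRNPD and HNRNPU) and DEAD-box genes (DDX3X, DDX5 and DDX55) read higher on all 3 failing arrays than on both control arrays, by 1.31-fold to 3.98-fold on average, on the deposited scale. The subunits of the polymerase went both ways, and its catalytic subunit POLR2A read nearly alike in both groups. For POLR2H and SNRPD2, probe sets of the same gene disagreed in direction. No member passed the test across all probe sets.

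Limma with Benjamini-Hochberg adjustment called 0 of the 42 member probe sets and 2 of the 2301 probe sets tested (0.0869%). At an unadjusted p under 0.05, 4 members were higher in failing myocardium, against 6.13% of all probe sets tested, and 1 was lower, against 3.35% of all. Of the 4, the sets of POLR2H and SNRPD1 were bright enough to be tested only through the failing arrays, and 2 remained with a filter on the mean of the group means. Of all probe sets past that unadjusted threshold, 64.7% were higher on the deposited scale and 44.7% with the 75th percentile of each array as its unit. After that scaling 3 members were higher, against 3.82% of all probe sets tested, and 1 was lower, against 4.74%. These counts are too small to compare the split of the members with that of all. On all failing arrays 13 members lay above both control arrays, or 31.0%, against 18.2% of all probe sets tested, and 4 lay below both, or 9.52%, against 11.5% of all. The median log2 fold change of all tested probe sets was 0.11 and that of the members 0.08.

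The count above control moved with the arrays and the scaling used. After division by the 75th percentile it was 8 members (19.0%, against 12.1% of all), and the median of all probe sets moved from 0.11 to −0.10. Without failing 2a the share above was 40.5% of members against 28.2% of all, and the share below 16.7% against 21.0%. The share above came near that of all probe sets without control 1a (32.6% against 29.7%) and without failing 1a (27.5% against 24.9%). Over all 80 member probe sets, dim ones included and with no floor, 19 (23.8%) lay above and 10 (12.5%) below, against 13.1% and 13.4% of 4601.

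By class, 2 of 12 transcription members lay above and 2 below, 8 of 24 splicing members above and 2 below, and 3 of 6 helicase members above and 0 below. Of all tested probe sets 18.2% lay above and 11.5% below, and the transcription share above (16.7%) was near that of all. Median log2 fold changes were −0.03 for transcription, 0.07 for splicing and 0.75 for helicase members, which is −0.13, −0.04 and 0.64 from the median over all tested sets. Differences between the classes were not tested. The helicase median rests on few probe sets, and it was 0.07 over all 13 when dim ones were kept. Without failing 2a the transcription median lay 0.23 above that of all probe sets instead of 0.13 below it.

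**Figure D1:**
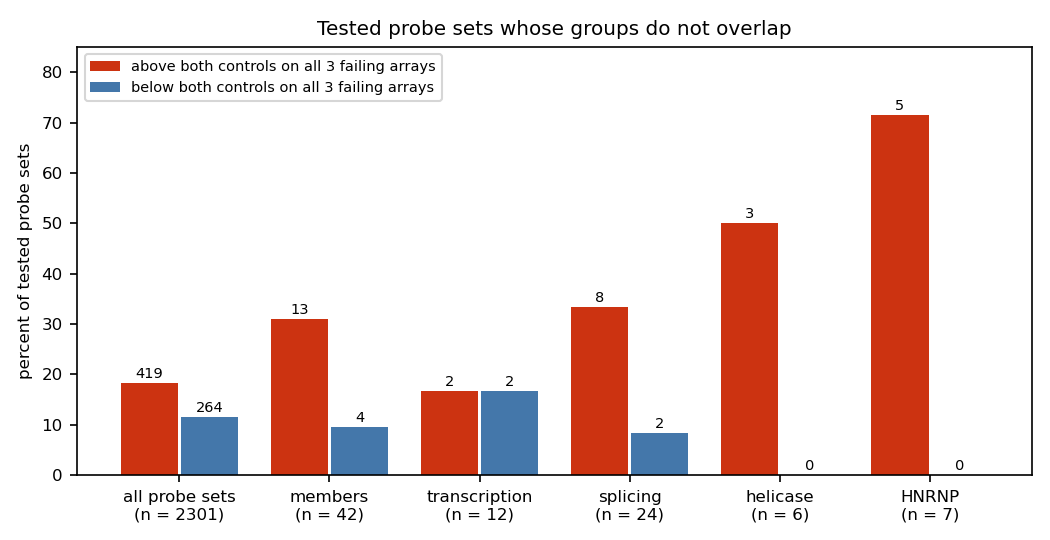
Bars give the percent of tested probe sets whose 3 failing values all lay above (red) or all below (blue) both control values, with the number of probe sets over each bar and the number tested under each name. Members lay above control in 31.0% against 18.2% of all probe sets, and the hnRNP prefix in 5 of 7.

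Among the subunits of RNA polymerase II, 7 of 10 genes had a tested probe set. POLR2A is the catalytic subunit, whose tail carries the phosphorylation sites that recruit capping and splicing factors. Its intensities were 1929 and 1596 on control 1a and 2a and 1919.6, 1534 and 1901 on failing 1a, 1b and 2a. The groups overlapped, with 1763 ± 236 (SD, n = 2) in control and 1785 ± 218 (SD, n = 3) in failing myocardium, and the log2 fold change was 0.02 ± 0.29 (SE, adjusted p = 0.992). POLR2I, a small subunit of the polymerase's jaw, read 1870.3 and 1843 on control 1a and 2a and 1777, 2056 and 1512 on failing 1a, 1b and 2a at its g set, again with overlapping groups. At its other probe set failing 2a alone stood apart, with −3360 against values between 2381 and 3537 on the other arrays.

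POLR2J and POLR2L, both structural subunits of the assembly platform, also had overlapping groups. POLR2J read 933 and 985 on control 1a and 2a and 1685, 984 and 1374 on failing 1a, 1b and 2a, where failing 1b lay between the control arrays and the other failing arrays above them. POLR2L read 3147 and 1909.8 on control 1a and 2a and 3415, 4056 and 1748 on failing 1a, 1b and 2a, so failing 2a lay below both control arrays and the other failing arrays above them. POLR2G, which forms the stalk that touches the emerging RNA, lay narrowly above control on every failing array at its only tested set. It read 275 and 214 on control 1a and 2a and 279, 325 and 352 on failing 1a, 1b and 2a, and its log2 fold change was 0.39 ± 0.74 (SE, adjusted p = 0.894). That difference was smaller than its standard error.

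POLR2F, shared by all nuclear RNA polymerases, had 3 tested probe sets with a log2 fold change below 0. At one of them (HSPD11001_i_at) the groups did not overlap, with 2231 and 2101 on control 1a and 2a and 1201, 1844 and 1571 on failing 1a, 1b and 2a. Its means were 2166 ± 92.1 (SD, n = 2) in control and 1539 ± 322 (SD, n = 3) in failing myocardium, a log2 difference of −0.51 ± 0.31 (SE, adjusted p = 0.676), and 0.700-fold. At the other probe sets failing 1a and 1b lay inside or above the range of the control arrays, and failing 2a was the lowest array with 462.0 and −452.

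POLR2H, another subunit that the nuclear polymerases share, held the smallest unadjusted p among the members, and its probe sets disagreed. The first set read 1829 and 1548 on control 1a and 2a and 384, 308 and 498 on failing 1a, 1b and 2a. The highest failing value was 498 and the lowest control value 1548, with 1689 ± 199 (SD, n = 2) in control and 397 ± 95.5 (SD, n = 3) in failing myocardium, a log2 difference of −2.11 ± 0.47 (SE, adjusted p = 0.305) and a fold of 0.231. Over 17 alternative settings this difference stayed between −2.33 and −1.94. All values of this set lay above every floor used, so changes of floor, filter or trend could not move it from −2.11. Probe set HSPD16572_at went the other way, with −11.9 and −229.8 on control 1a and 2a and 322, 302 and 2145 on failing 1a, 1b and 2a. Both control values were below the floor there, so its log2 fold change of 4.89 ± 1.38 (SE, adjusted p = 0.350) is set by the floor. The companion set HSPD16572_g_at read 1209 and 89.6 on control 1a and 2a and 1168, 289 and 219 on failing 1a, 1b and 2a, and its groups overlapped. Only 1 of these 3 sets can thus be read as lower in failing myocardium, and the files do not pair them with parts of the transcript.

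**Figure D2:**
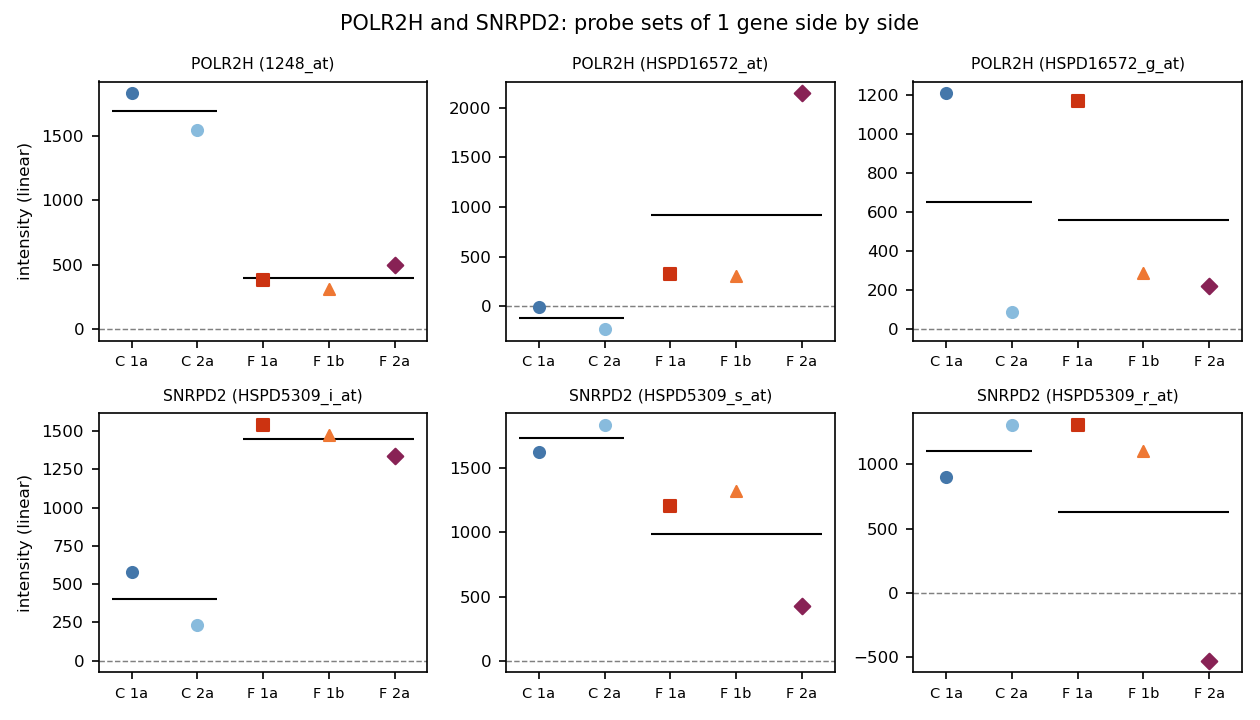
Linear intensity on each array (C, control, and F, failing) for the 3 tested probe sets of POLR2H (top) and of SNRPD2 (bottom), with black lines at the group means and a dashed line at 0. For each gene 1 set lies above control on every failing array, 1 lies below, and in 1 the groups overlap.

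The hnRNP genes were singled out after their values were seen. Of 7 tested probe sets of 6 genes, 5 exceeded both control arrays throughout and 0 lay below, and their median log2 fold change of 0.67 was 0.56 above that of all probe sets. With dim sets kept, the count above was 5 of 16, where 10.5% of all probe sets lay above. Among tested sets it was 4 after quantile normalization, where 13.5% of all lay above, and 3 after division by the 75th percentile, where 12.1% did. With any 1 array left out it was 5 or 6, against 24.9% to 30.9% of all. After quantile normalization the median stayed 0.56 above that of all probe sets, and without control 1a it was 0.32 above. Division by the 75th percentile moves all values above the floor on an array alike, so it cannot test this offset.

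HNRNPA2B1 binds exon and 3′ UTR sequences and takes part in splicing and RNA transport. It read 4124 and 4096 on control 1a and 2a and 6281, 5914 and 5224 on failing 1a, 1b and 2a. The control arrays agreed closely, and every failing array lay above them. Its means were 4109.7 ± 20.1 (SD, n = 2) in control and 5806 ± 536 (SD, n = 3) in failing myocardium, a log2 difference of 0.49 ± 0.19 (SE, adjusted p = 0.516), and 1.41-fold. This was 1 of the 4 members higher at an unadjusted p under 0.05.

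HNRNPK, a poly(C)-binding protein of transcription and splicing, read 2576 and 2672 on control 1a and 2a and 3289, 4039 and 5437 on failing 1a, 1b and 2a. Failing 2a was highest, and failing 1a exceeded the nearer control by less than failing 1b did. Its means were 2624 ± 68.1 (SD, n = 2) in control and 4255 ± 1089.9 (SD, n = 3) in failing myocardium, 1.59-fold, with a log2 difference of 0.67 ± 0.28 (SE, adjusted p = 0.522). HNRNPD, which binds AU-rich elements and speeds mRNA decay, read 889 and 1522 on control 1a and 2a and 1913, 1864 and 1974 on failing 1a, 1b and 2a. Here the failing arrays lay close together and the control arrays apart, with a log2 difference of 0.72 ± 0.35 (SE, adjusted p = 0.590) and 1.65-fold. HNRNPU, a scaffold protein that ties nuclear RNA to chromatin, read 1398 and 1438 on control 1a and 2a and 1582, 1656 and 2464 on failing 1a, 1b and 2a. Failing 2a lay farthest above control, and its log2 fold change was 0.39 ± 0.33 (SE, adjusted p = 0.773), 1.31-fold. The other probe set of HNRNPU was below the floor on every array.

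HNRNPA1, a classical repressor of splice sites, gave unstable readings. One set (HSPD19369_r_at) read 1855 and −1976 on control 1a and 2a and 6842, 1989.8 and 18795 on failing 1a, 1b and 2a, where the lowest failing value barely cleared the higher control. The other tested set (HSPD19369_i_at) read 3879.8 and 2617 on control 1a and 2a and 1626, −2169.5 and 7842 on failing 1a, 1b and 2a, and its log2 fold change was −2.33 ± 2.48 (SE, adjusted p = 0.827). HNRNPF, a binder of G-rich tracts, read −472 and 539 on control 1a and 2a and 432, 243 and 742 on failing 1a, 1b and 2a, with overlapping groups. HNRNPA3P1, outside the members, went against this pattern at a bright probe set, with 25728 and 29588 on control 1a and 2a and 8999, 9220.3 and 21548 on failing 1a, 1b and 2a (log2 fold change −1.18 ± 0.42 SE, adjusted p = 0.487 in limma).

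**Figure D3:**
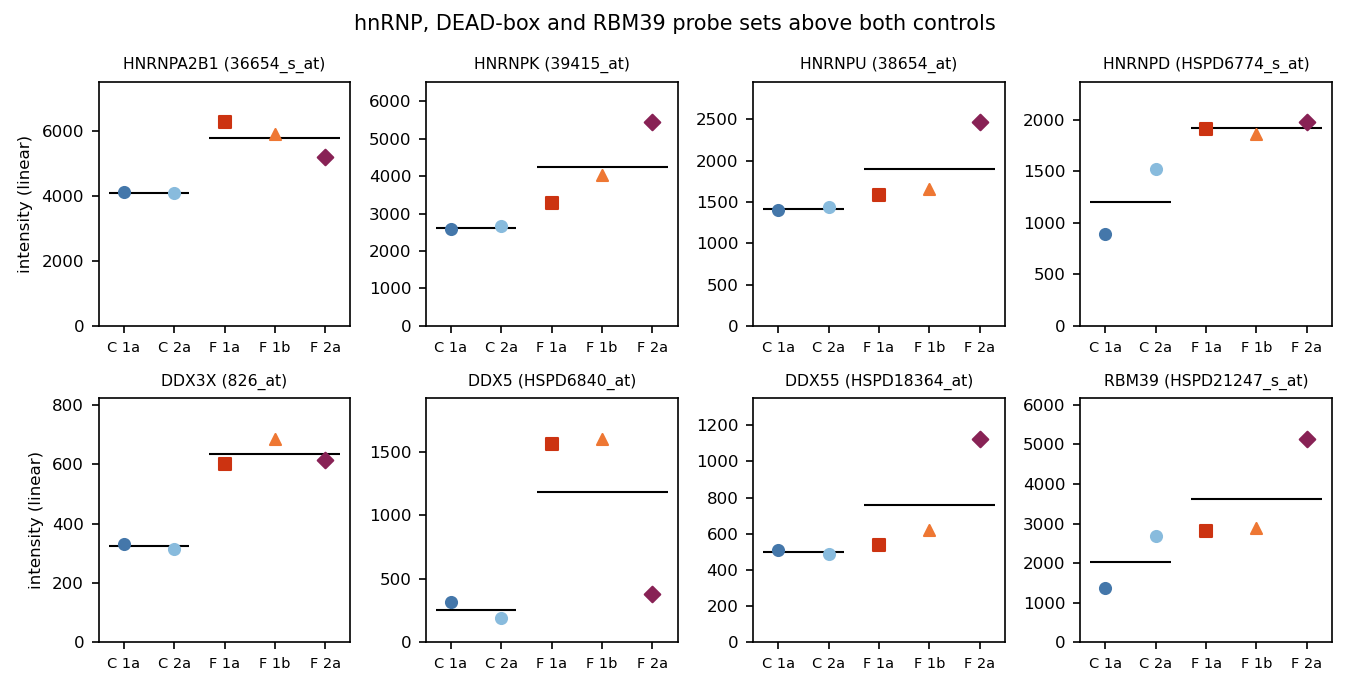
Linear intensity on each array (C, control, and F, failing) of 8 member probe sets that lay above both control arrays on all failing arrays, with black lines at the group means and axes from 0. HNRNPA2B1 and DDX3X show tight groups, while failing 2a sets much of the difference for HNRNPK, HNRNPU, DDX55 and RBM39 and is the lowest failing array for DDX5.

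The Sm proteins form the ring at the core of the spliceosomal particles. SNRPD2 had 3 tested probe sets that disagreed. Set HSPD5309_i_at read 577 and 232 on control 1a and 2a and 1542, 1477 and 1338 on failing 1a, 1b and 2a, so every failing array exceeded both control arrays. Its means were 405 ± 244 (SD, n = 2) in control and 1452 ± 104 (SD, n = 3) in failing myocardium, 3.96-fold, with a log2 difference of 1.99 ± 0.53 (SE, adjusted p = 0.344). Set HSPD5309_s_at read 1626 and 1840.3 on control 1a and 2a and 1210.4, 1327 and 428 on failing 1a, 1b and 2a, below control on every failing array, with a log2 difference of −0.97 ± 0.59 (SE, adjusted p = 0.676) and 0.510-fold. In the remaining set failing 2a read −528 and the other failing arrays lay within or just above the control range.

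SNRPD1, its neighbour in the ring, had a tested set and another too dim to be tested, whose groups overlapped. The tested set read 43.8 and −35.1 on control 1a and 2a and 465, 187 and 1215 on failing 1a, 1b and 2a. Failing 2a was highest and 1 control array was below the floor, so no fold is given, and on floored values the log2 difference came to 4.0 ± 1.32 (SE, adjusted p = 0.458). SNRPE read 1153 and 1419 on control 1a and 2a and 1210.3, 1132 and 1449 on failing 1a, 1b and 2a. Its groups overlapped, and its log2 fold change was −0.03 ± 0.33 (SE, adjusted p = 0.989).

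For proteins particular to single particles the groups overlapped, and some readings were wide. SNRPC, which helps the U1 particle recognise the start of an intron, read 944 and 719 on control 1a and 2a and 889.6, 597 and 567 on failing 1a, 1b and 2a at one set, and its other set ran from 402.5 on failing 1a to 2100.4 on failing 2a. SNRPB2 of the U2 particle read 2651 and 3683 on control 1a and 2a and 3104, 3061 and 3935 on failing 1a, 1b and 2a. The groups of both genes overlapped. SF3A3, part of the complex that helps U2 bind the branch site, read 609.9 and 597 on control 1a and 2a and 421, 436 and 1035 on failing 1a, 1b and 2a, with failing 1a and 1b below control and failing 2a above. SF3B5, a small subunit of the neighbouring complex, read 1838 and 1663 on control 1a and 2a and 1933, 1186 and 5022 on failing 1a, 1b and 2a, where failing 2a alone was far above control.

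PRPF6 bridges the particles of the tri-snRNP and read 685 and 1161 on control 1a and 2a and 902, 889 and 227 on failing 1a, 1b and 2a, with failing 2a alone below both control arrays. LSM1 belongs to the cytoplasmic ring that promotes decapping and decay of mRNA rather than to the spliceosome. It read 798 and 576 on control 1a and 2a and 859, 319.8 and 891 on failing 1a, 1b and 2a, and failing 1b alone was below control. Neither gene separated the groups.

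Of the SR proteins, SRSF2 read 806 and 553 on control 1a and 2a and 941, 616 and 552 on failing 1a, 1b and 2a, with a log2 difference of 0.04 ± 0.51 (SE, adjusted p = 0.990). Its groups overlapped. SRSF9 read 437 and 462 on control 1a and 2a and 1118, 945 and −1369.7 on failing 1a, 1b and 2a, so failing 1a and 1b were far above control while failing 2a was below 0. The direction of its group mean thus rests on failing 2a.

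RBM39, a splicing coactivator related to U2AF, read 1365 and 2689 on control 1a and 2a and 2808, 2877 and 5143 on failing 1a, 1b and 2a at the set HSPD21247_s_at. Every failing array exceeded both control arrays, failing 1a by little, with 1.81-fold and a log2 difference of 0.85 ± 0.44 (SE, adjusted p = 0.606). Its set HSPD21247_r_at had overlapping groups and −99.2 on failing 2a. RBMX, an hnRNP-like protein encoded on the X chromosome, read 324 and 312 on control 1a and 2a and 181, 304 and 28.9 on failing 1a, 1b and 2a. It lay below control on each failing array, failing 1b by less than 10 units, and its log2 fold change was −1.45 ± 1.39 (SE, adjusted p = 0.812).

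Among the helicases, 3 of 6 tested sets lay above control on the deposited scale, against 18.2% of all probe sets. With quantile normalization and with the 75th percentile 1 of 6 did, near the 13.5% and 12.1% of all. DDX3X takes part in translation initiation and mRNA export. It read 332 and 316 on control 1a and 2a and 601, 686 and 614 on failing 1a, 1b and 2a, with tight groups that did not overlap. Its means were 324 ± 11.7 (SD, n = 2) in control and 634 ± 45.6 (SD, n = 3) in failing myocardium, 1.95-fold, with a log2 difference of 0.97 ± 0.53 (SE, adjusted p = 0.643). DDX5, a helicase of splicing and a transcriptional coactivator, read 321 and 189 on control 1a and 2a and 1562, 1602 and 378 on failing 1a, 1b and 2a. Failing 1a and 1b were far above control and failing 2a only just, giving 3.98-fold and a log2 difference of 1.99 ± 0.84 (SE, adjusted p = 0.522). Both genes kept their direction in every alternative setting in which they were tested. Without overlap between the groups, leaving out an array cannot change that direction.

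DDX55, which acts in assembly of the large ribosomal subunit, read 510.5 and 489 on control 1a and 2a and 535, 620.0 and 1125 on failing 1a, 1b and 2a. Failing 1a exceeded control by little and failing 2a by most, with 1.44-fold and a log2 difference of 0.53 ± 0.55 (SE, adjusted p = 0.826). DDX1, part of the tRNA ligase complex, read 3308 and 4554 on control 1a and 2a and 3071, 3956 and 5543 on failing 1a, 1b and 2a, and DDX42, a helicase tied to the U2 particle, read 293 and 219 on control 1a and 2a and 170.4, 197 and 282 on failing 1a, 1b and 2a. The groups overlapped for both.

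DDX49, a helicase of ribosome assembly, had the widest readings of the family. Set HSPD18170_r_at read −793 and −1255 on control 1a and 2a and 6556, 4701 and −5802 on failing 1a, 1b and 2a. Without failing 2a limma called it, with an adjusted p of 0.0242, against 0.598 with all arrays. Both control arrays were below the floor and were raised to the same value. The floor thus sets the size and removes the spread between the control arrays from the test. The failing group then held failing 1a and 1b alone, and the set was bright enough to be tested only through the failing arrays. Its other probe set was below 0 on all arrays.

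**Figure D4:**
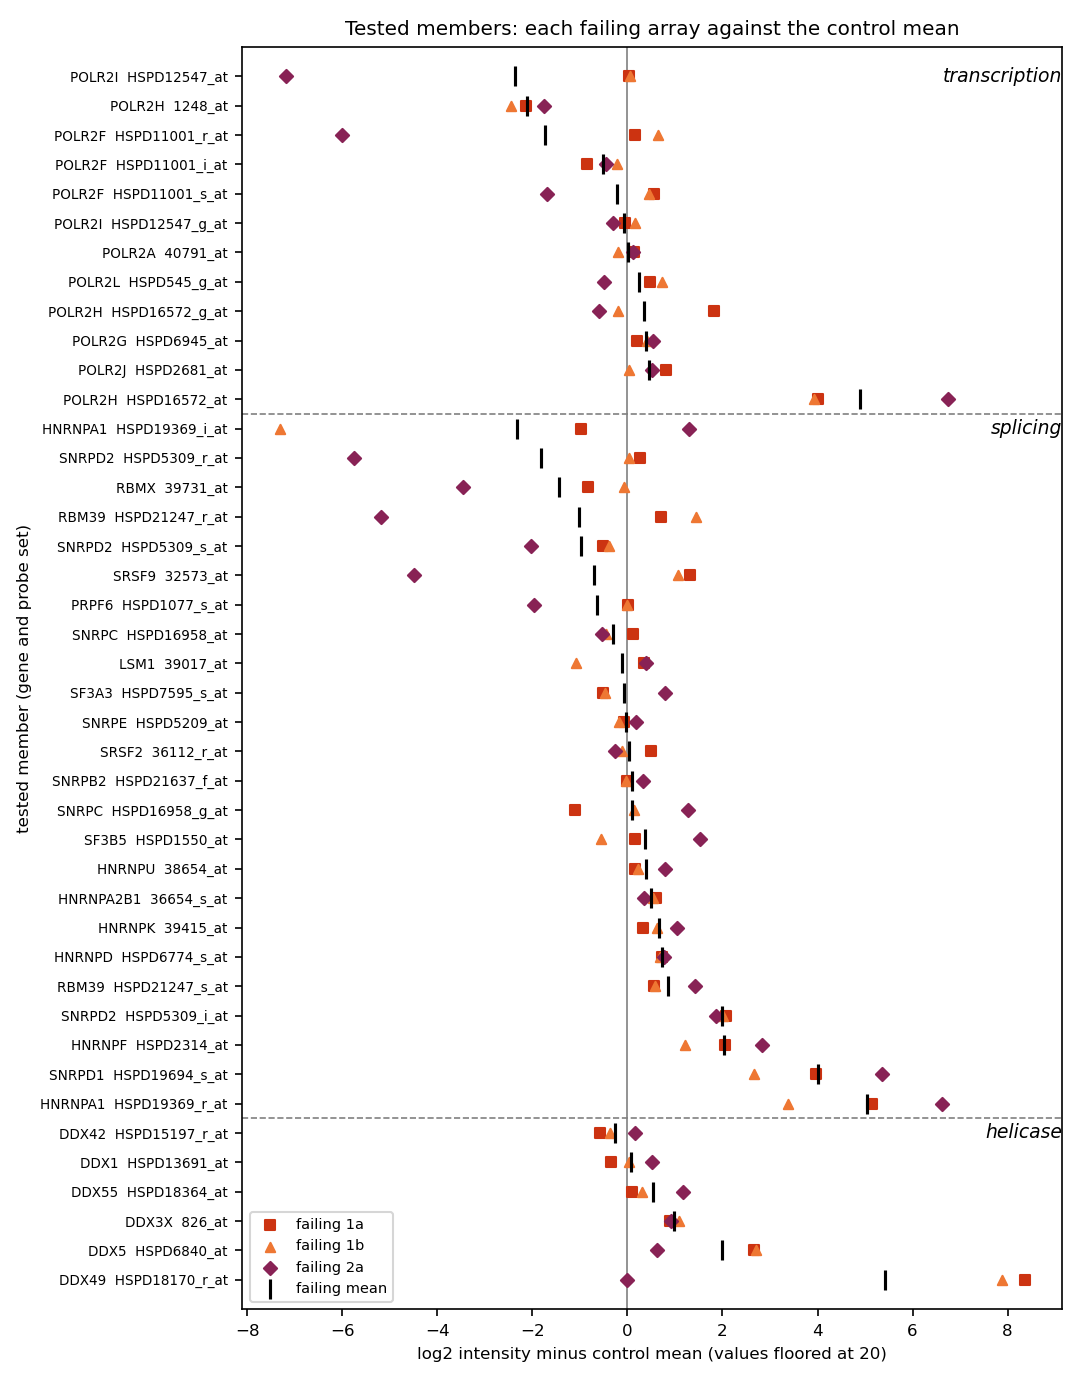
Each row is 1 of the 42 tested member probe sets, with the log2 intensity of failing 1a, 1b and 2a minus the control mean, after a floor of 20, and a black bar at the failing mean. Failing 1a and 1b lie close together in most rows, while failing 2a is often apart, to the left for POLR2I, POLR2F and SRSF9 and to the right for POLR2H (HSPD16572_at) and SNRPD1.

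Array by array, the median of all 42 members over the control mean was 0.24 on failing 1a, 0.14 on failing 1b and 0.34 on failing 2a, against 0.11, 0.10 and 0.34 for all tested probe sets. The transcription members had 0.18, 0.10 and −0.48, so only failing 2a lay below control by the median. The splicing members had 0.30, 0.08 and 0.58, and the helicase members 0.50, 0.70 and 0.57. The hnRNP sets had 0.61, 0.62 and 1.05, against −0.02 and 0.02 on the control arrays.

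The kind of probe set went with the stability of the readings. Letters in the name mark sets whose probes were shared between transcripts (f, g or s) or that missed the maker's usual probe selection (i or r). Of 10 tested member sets with i or r, 6 had an array below the floor and the median standard error was 1.99 on the log2 scale. Of 19 sets without a letter 4 had such an array and the median standard error was 0.55, and of 13 with f, g or s 1 did, with 0.59. Among 7 genes with several tested sets, all sets had the same sign for POLR2F and POLR2I and differed in sign for POLR2H, HNRNPA1, RBM39, SNRPC and SNRPD2. How well each set matches the dog transcript was not tested.

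The other 38 member probe sets were too dim to be tested, and 10 of the 80 were below the floor on all 5 arrays. They left 18 genes without a tested set, namely POLR2C, POLR2D, POLR2E, HNRNPAB, HNRNPC, HNRNPM, HNRNPUL1, SNRPD3, SNRPF, SNRPG, SRSF3, SRSF5, RBM4, RBM6, DDX21, DDX23, DDX39A and DHX30. With dim sets kept and the floor applied, 18.8% of the 80 member sets lay above and 8.75% below, against 10.5% and 8.28% of all 4601. The shares over all untested probe sets alone were not counted. Among the untested member sets 2 lay above control on every failing array (DHX30 and RBM6) and 3 below (SNRPF, SRSF3 and POLR2D), and 33 overlapped. SNRPF, an Sm protein, was the one of these with no array below the floor, and it read 224 and 169 on control 1a and 2a and 27.7, 28.1 and 38 on failing 1a, 1b and 2a, or 0.159-fold with no test. A low reading on these arrays does not show a low transcript level in dog heart.

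Of the other genes in the same pathways, limma called 0 after adjustment, and no list was tested against the members. General transcription and elongation factors had 12 tested probe sets of 10 genes, of which 0 were past an unadjusted p of 0.05, 1 lay above control and 2 below, with a median log2 fold change of −0.23. Other splicing factors had 17 tested sets of 15 genes with a median of −0.13, where 3 lay above and 2 below, shares near the 18.2% and 11.5% of all probe sets, and 1 was higher at an unadjusted p under 0.05. That gene was RBFOX2, a regulator of muscle and heart splicing, which read 998 and 413 on control 1a and 2a and 1472, 1479 and 2976 on failing 1a, 1b and 2a. Every failing value exceeded both control values, with a log2 difference of 1.54 ± 0.57 (SE, limma's adjusted p = 0.496). Of the exon junction, export and 3′ end genes only CASC3 was tested, an exon junction protein that read 839 and 844 on control 1a and 2a and 2009, 2565 and 7586 on failing 1a, 1b and 2a, with 2.01 ± 0.61 (SE, adjusted p = 0.412 in limma). The 6 Mediator probe sets were all too dim, and 3 tested sets of other RNA helicases had a median of −0.62, with 1 above control.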

How the data were processed

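Expression was measured on 5 oligonucleotide arrays, 2 of control and 3 of failing canine myocardium, grouped by the sample titles. Control probe sets of the array carry names of human genes, such as HUMGAPDH and HUMTFRR, so the probes may be human rather than canine. The authors deposited linear intensities, 1 per probe set and array, and the software, protocol and normalization behind them are not given in the sources used here. By the values themselves, the mean of every array without the lowest and highest 2% is 800, and 34.8% to 40.1% of the intensities of an array are below 0.

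Of 4653 probe sets, 52 array controls were left out, and of the other 4601, 3724 had 1 gene symbol in the platform annotation, 72 several and 805 none. Of the 50 member symbols 49 are also in the dog gene table (UU_Cfam_GSD_1.0), a match of names and not of probe sequences. Columns of other samples numbered 0. Intensities were floored at 20 and put on the log2 scale without further scaling. Probe sets whose mean log2 value reached the median of 7.13 went into limma (version 3.58.1 under R 4.3.3), using lmFit and then eBayes with a trend on intensity and no block. Two-sided p-values received the Benjamini-Hochberg adjustment over all 2301 at a threshold of 0.05. The fit was per probe set because the rule names probe sets. It was tested on simulated data before use, where it recovered 17.5% of planted log2 changes of 2 and 60.9% of those of 4. Of its calls there, 4.15% were false. A probe set that was not called may therefore still differ. The number of arrays limits the precision.

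The named genes are every polymerase subunit on the array, every tested member whose groups do not overlap or whose unadjusted p is under 0.05, the brightest sets of each prefix, and members with several sets. Members and lists were chosen with earlier results of these data known. Markers of heart muscle, fibroblast, endothelial, smooth muscle, leukocyte, erythrocyte and fat cells were read beside them. Endothelial sums ran from 9509 to 14125 in control and from 7706 to 12596 in failing myocardium, smooth muscle from 4685 to 4871 and 4327 to 6206, erythrocyte from 4664 to 6043 and 4597 to 6976, and fat cell from 10619 to 10760 and 7730 to 11930. Scaling, floor, filter, transformation, trend, gene-level fit, array averaging, a block and each array's omission were varied. Groups of this size and a single contrast left nothing for outlier or interaction checks.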

Additional observations from a re-analysis of the deposited data

How the results depend on the processing

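The 18 members followed were chosen from these data. Their groups did not overlap, their unadjusted p was under 0.05, or a setting called them. For groups that do not overlap, leaving out an array or changing the filter cannot reverse the direction, so much of this count was fixed in advance. Over up to 17 alternatives each, 281 of 282 values kept their direction and their side of the threshold and 0 reversed. The exception was DDX49, called without failing 2a (log2 fold change 8.12), and in that setting alone the number of members called was 1 instead of 0, so over the omissions of 1 array it ran from 0 to 1. Fits without a control array leave 1, assumed to vary like the failing arrays.

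Members higher at an unadjusted p under 0.05 numbered 4, against 6.13% of all tested probe sets. With a floor of 100 they numbered 2 (6.13% of all). With at least 200 on every array (7.7% of all) or the filter on the mean of the group means (5.74%) they also numbered 2. They numbered 1 with failing 1a and 1b averaged (3.13% of all) and 7 with the replicate block (9%). Under that block 0 members were called and 1 was lower (4.69% of all). The titles' numbers do not pair the arrays by any stated link, and the differences between number 1 and number 2 hardly correlated between the groups (r = 0.042 across 2301 probe sets). Without 1 failing array the count of members higher ran from 2 to 5, against 3.52% to 9.21% of all. Members lower at that threshold numbered 1 (3.35% of all), and 3 without the filter (3.33% of all). The count above both control arrays, 13 (18.2% of all), was 8 after division by the 75th percentile (12.1% of all). The count below, 4 (11.5% of all), was 7 without the filter (8.28% of all). It was 10 with neither filter nor floor (13.4% of all, chosen after seeing the data), and 5 to 8 without single arrays (15.2% to 21% of all).

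The helicase median of 0.75 was 0.49 after quantile normalization, 0.54 after division by the 75th percentile, 0.53 with a floor of 5, with at least 200 on every array and with the filter on group means, 0.52 with asinh, 0.07 without the filter, and 0.60 to 0.78 without single arrays. The transcription and splicing medians moved by less than the spread between the failing arrays. Over all probe sets limma called 0 to 21 in the alternatives. Readings below the floor have no order, and 48 of the 80 member sets have at least 1.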
